A study of Mus musculus with 6 samples.

Results

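The genes described here are 31 microglia marker genes, measured in the hypothalamus of obese mice given GSK-J4 or vehicle. They were chosen by name: every probe of the array whose gene name was one of the 31 symbols was taken, a rule that uses no measured value, although the symbols were listed with earlier results of these data known. All 31 genes were on the array, with 57 of its 56605 probes, and all 31 had at least 1 probe that passed the filter on dim signals, 46 probes in all. The series holds 6 one-colour Agilent mouse expression arrays, 3 labelled GSK-J4 and 3 labelled Vehicle, with the RNA of a different mouse on each. Every mouse of both groups was a male C57BL/6J with diet-induced obesity (DIO), fed a high-fat diet with 60 kcal% fat for 16 weeks from the age of 6 weeks. The treated mice received GSK-J4, an inhibitor of the Kdm6 demethylases that remove the methyl marks of histone H3 lysine 27, at 30 mg kg−1, and the controls received 0 mg kg−1. The day of the tissue is 4 in the design text, counted from exposure. The methods describe a longer course of the drug in such mice and do not give the day of the arrays. The hypothalamus was dissected at ZT 6 h, counted from lights on. The drug was given to the whole animal and the dissected tissue is a mixture of cells, so that a different number of microglia and a different amount of RNA per microglial cell cannot be told apart in these values.

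Microglia are the resident macrophages of the brain parenchyma. They survey the tissue with receptors for nucleotides, fractalkine and colony stimulating factors, signal through adaptor proteins that carry immune tyrosine motifs, and clear synapses and debris through complement C1q, Fc receptors and the lysosome. In the hypothalamus they are known to respond to diets rich in saturated fat. The 31 genes are grouped below into surface receptors (7 genes), adaptors with Fc and lectin receptors (6), complement C1q (3), leukocyte surface proteins (6), lysosomal proteins (3) and others (6).

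Slide 1 carried the 3 Vehicle arrays and slide 2 the 3 GSK-J4 arrays, and the effects of slide and drug cannot be told apart in the differences below. The GSK-J4 arrays were dimmer before normalization, with 57.7% to 58.7% of probes well above background as compared to 62.8% to 63.6% on the Vehicle arrays. Arrays of a group correlated at 0.981 to 0.995 across the genes kept, with the brightest probe for each. Vehicle 1 stood apart in choroid plexus markers, with a mean log2 signal over 9 genes of 12.6 as compared to 7.39 to 8.68 on the other arrays. Signals are log2 values after quantile normalization, and a difference is the GSK-J4 mean minus the Vehicle mean. With the brightest probe standing for each of the 22117 genes kept, a gene was called when its limma p, adjusted over all of them, did not exceed 0.05.

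Most of the microglia marker genes were higher on the GSK-J4 arrays. The difference was above 0 for 22 of the 31 genes and below 0 for 9, against 54.2% of all genes above 0, and the median difference was 0.39 as compared to 0.04 over all genes. Limma called 11 of the 31 higher, where 9% of all genes were called higher, and 2 lower, where 7.77% were called lower. The 11 that rose were Selplg, Cd68, Fcrls, C1qc, C1qb, Cd53, Laptm5, Slc2a5, Fcgr3, Tyrobp and C1qa, by 0.41 to 0.81 on the log2 scale, and the 2 that fell were Csf3r and Ptprc. With scaling to the 75th percentile in place of quantiles, 14 members and 4160 of all genes were called higher, and 2 members and 1986 of all genes lower. By the rule of the study's methods, which asks for a 1.5-fold change and an unadjusted p not above 0.05, 1 of the 31 was higher (Selplg, background 4.84%) and 1 was lower (Csf3r, background 6.39%), and the differences of all other members were under 1.5-fold. The 3 GSK-J4 values lay above the 3 Vehicle values for 19 genes, where this held for 25.5% of all genes, and below them for 3, where it held for 20%. For such genes the exact permutation test over the 20 splits of the arrays gave its smallest two-sided p of 0.1, except for Csf1r, where 5 values gave an exact p of 0.2.

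The calls depended on which arrays were used. Leaving out any 1 of the 3 Vehicle arrays left 0 of the 31 genes called by limma, where 1 to 19 of the 22117 genes were called higher and 11 to 46 lower. At an unadjusted p of at most 0.05, 15 to 17 members were higher and 2 or 3 lower. The share of all genes at this unadjusted p is not given, here and below, so such counts have no background to be read against. Without GSK-J4 1, GSK-J4 2 or GSK-J4 3, limma called 8, 3 and 3 members higher, and 1, 2 and 2 lower. Over all genes these fits called 664, 1382 and 911 higher, and 762, 1200 and 1260 lower. The median difference of the 31 genes stayed between 0.35 and 0.44 in these 6 fits. Taken array by array, the median deviation of the 31 genes from the Vehicle mean was 0.04, 0.04 and -0.05 on Vehicle 1 to 3 and 0.26, 0.38 and 0.50 on GSK-J4 1 to 3. GSK-J4 3 held the highest value of all 6 arrays for 18 of the genes, and Vehicle 3 the lowest for 14.

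**Figure D1:**
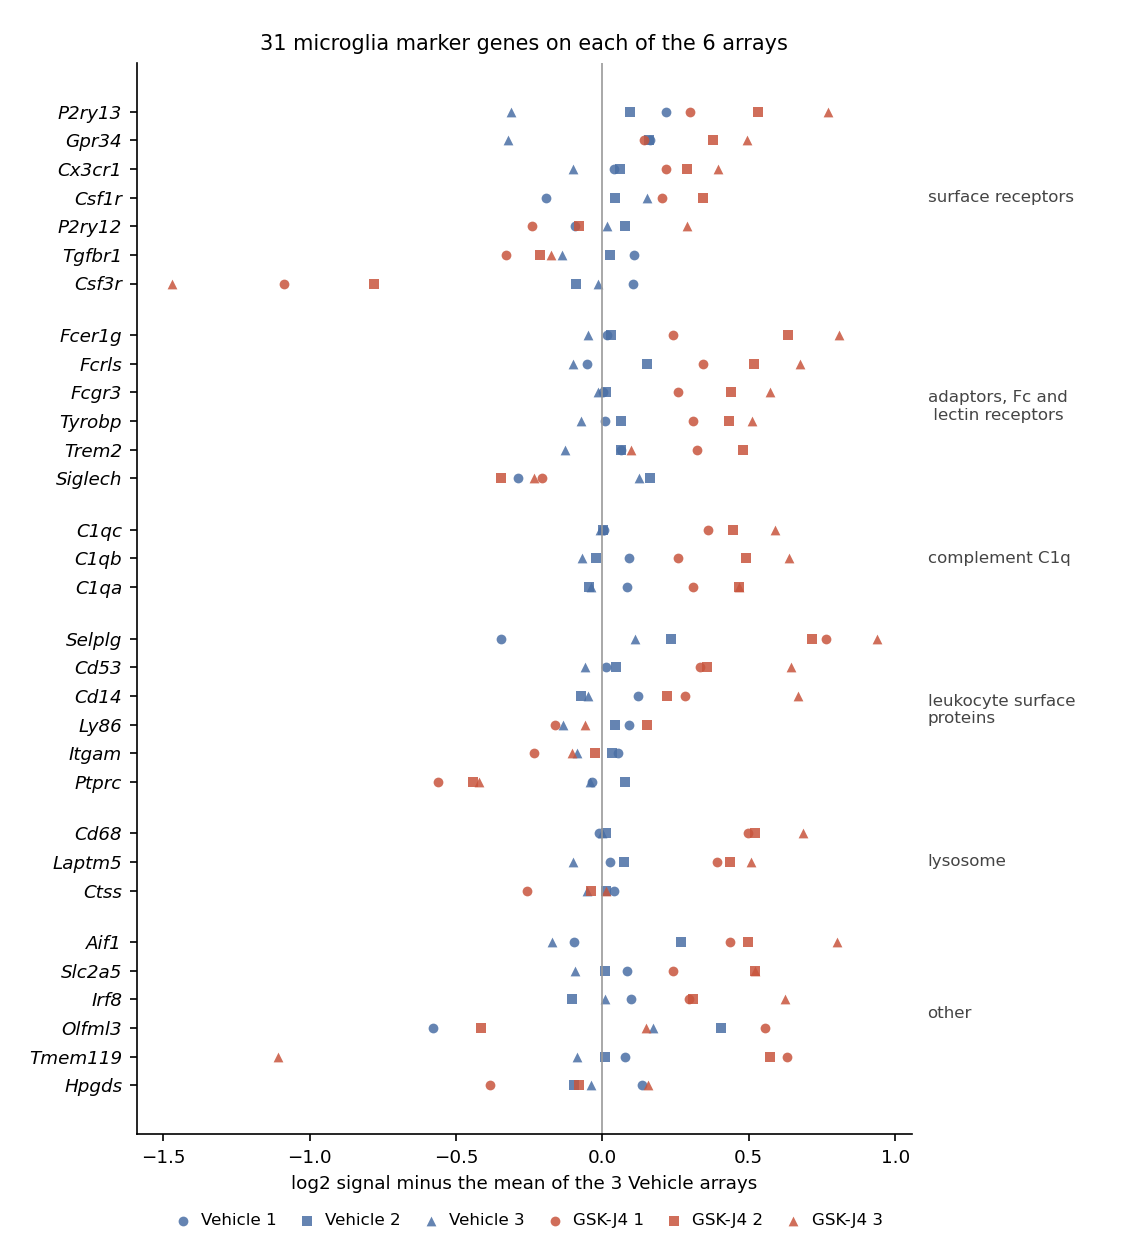
Log2 signal of each of the 31 genes on each array, minus the mean of the 3 Vehicle arrays (horizontal axis), with the genes in rows by role, Vehicle arrays in blue and GSK-J4 arrays in red. For 19 genes the red points lie to the right of all blue points, and for 3 genes (Csf3r, Ptprc and Tgfbr1) they lie to the left.

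All 3 chains of complement C1q rose, C1qc also after a correction for the base composition of the probes. C1q is the recognition molecule of the classical complement pathway, built from chains A, B and C, and microglia are its main source in the brain. C1qa measured 10.97, 10.84 and 10.85 on the Vehicle arrays and 11.20, 11.36 and 11.36 on the GSK-J4 arrays, a difference of 0.41 (SE 0.08, limma adjusted p = 0.0283). C1qb measured 10.40, 10.28 and 10.24 against 10.56, 10.80 and 10.94, a difference of 0.46 (SE 0.12, limma adjusted p = 0.0476). C1qc measured 11.27, 11.27 and 11.25 against 11.62, 11.71 and 11.85, a difference of 0.47 (SE 0.08, limma adjusted p = 0.0228). In all 3 genes every GSK-J4 array was above every Vehicle array, and the 3 Vehicle values of C1qc differed by less than those of the other chains. With the correction for G and C content, limma kept the call for C1qc (0.56, adjusted p = 0.0226) but not for C1qa (0.16, adjusted p = 0.242) and C1qb (0.21, adjusted p = 0.268). The probes of the 3 genes lie within 1 cluster on chromosome 4 of mm9, at chr4:136452409-136452468 for C1qa, chr4:136445766-136445825 for C1qc and chr4:136436578-136436637 for C1qb, all on the minus strand. The bases just upstream of the starts of C1qb and C1qc are shown because both genes rose and lie side by side. They come from RefSeq on GRCm38.p6, minus strand, at chr4:136886201-136886450 and chr4:136892937-136893164, without bases covered by a RefSeq transcript of the gene. Capitals mark GAGGAAG on either strand, the core of sites known to be bound by PU.1, the myeloid factor encoded by Spi1.
C1qb: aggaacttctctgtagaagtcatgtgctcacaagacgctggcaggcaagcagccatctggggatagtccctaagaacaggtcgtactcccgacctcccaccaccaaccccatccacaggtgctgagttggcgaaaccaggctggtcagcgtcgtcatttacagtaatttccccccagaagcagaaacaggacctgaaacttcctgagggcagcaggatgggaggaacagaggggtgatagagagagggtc
C1qc: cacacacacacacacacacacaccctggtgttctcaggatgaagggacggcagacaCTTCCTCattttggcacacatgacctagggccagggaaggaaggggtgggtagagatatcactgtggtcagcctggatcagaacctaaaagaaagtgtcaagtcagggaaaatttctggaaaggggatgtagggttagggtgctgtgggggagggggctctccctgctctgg
C1qc held the motif on the reverse strand, 188 to 194 bases before the start, and C1qb did not hold these letters.

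The motif was then counted over all members with an upstream window. RefSeq gave 28 windows, each searched over its full 250 bases before the start, for 24 of the 31 genes, and 7 genes (Gpr34, Tmem119, Selplg, Cd14, Csf1r, C1qa and Tyrobp) had no entry. GAGGAAG stood on either strand of 11 of the 28 windows (39.3%), those of 10 genes, as compared to 10.6% of the 32851 windows of all genes. These genes were C1qc, Laptm5, Fcgr3 and Fcrls, which rose, Csf3r, which fell, and P2ry13, Tgfbr1, Hpgds, Itgam and Trem2, which were not called. It thus stood in 4 of the 8 genes with a window that rose and in 6 of the other 16. Of the other motifs searched, GAGGAAGT, which contains the first, stood in 2 windows (7.14%, all genes 2.44%), the TATA box TATAAA in 5 (17.9%, all genes 12.4%) and the AP-1 site TGACTCA in 1 (3.57%, all genes 4.46%). Windows of starts that lie close together overlap, as for Fcgr3, and a match of letters does not show that a factor binds.

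The adaptors and the Fc and lectin receptors showed 3 rises among 6 genes and no fall, and none of the 3 rises passed the test after the correction for G and C content. Tyrobp, the adaptor (also called DAP12) through which Trem2 and related receptors signal, measured 11.19, 11.24 and 11.10 on the Vehicle arrays and 11.49, 11.61 and 11.69 on the GSK-J4 arrays (difference 0.42, SE 0.08, limma adjusted p = 0.0292). The coordinates of its 60-base probe run over chr7:31200651-31202378 on mm9, a span longer than the probe. Fcgr3, a low affinity receptor for immunoglobulin G, measured 9.81, 9.82 and 9.79 against 10.07, 10.25 and 10.38 (0.42, SE 0.10, limma adjusted p = 0.0381), and its second kept probe differed by 0.56 (SE 0.12, limma adjusted p over probes = 0.0342). Fcrls, an Fc receptor-like protein used as a microglial marker in mice, measured 8.92, 9.13 and 8.87 against 9.32, 9.49 and 9.65 (0.51, SE 0.12, limma adjusted p = 0.0399). For all 3 genes the GSK-J4 values were above all Vehicle values. The corrected differences were 0.18 for Tyrobp, 0.37 for Fcgr3 and 0.26 for Fcrls (limma adjusted p = 0.207, 0.0581 and 0.188). Fcer1g, the common gamma chain of Fc receptors, had a larger difference than Fcgr3 but missed the threshold. It measured 10.74, 10.75 and 10.68 against 10.96, 11.36 and 11.53, a difference of 0.56 (SE 0.15, limma adjusted p = 0.0574), with a wide spread within the GSK-J4 group. Trem2, the lipid and lipoprotein receptor that pairs with Tyrobp, measured 11.01, 11.01 and 10.82 against 11.27, 11.43 and 11.05 (0.30, SE 0.12, limma adjusted p = 0.135).

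Among the lysosomal genes, Cd68 had the smallest adjusted p of all 31. Cd68, a glycoprotein of late endosomes and lysosomes in phagocytes, measured 9.86, 9.88 and 9.87 on the Vehicle arrays and 10.36, 10.39 and 10.55 on the GSK-J4 arrays (difference 0.57, SE 0.08, limma adjusted p = 0.0152). The 3 Vehicle values were nearly equal, and the groups were well apart. A second Cd68 probe differed by 0.62 (SE 0.12, limma adjusted p over probes = 0.0267). Laptm5, a lysosomal membrane protein of blood-derived cells, measured 9.004, 9.05 and 8.88 against 9.37, 9.41 and 9.48 (0.44, SE 0.08, limma adjusted p = 0.0233). Ctss, the protease cathepsin S, did not follow them. It measured 13.42, 13.39 and 13.32 against 13.12, 13.34 and 13.39, with overlapping groups and a difference of -0.10 (SE 0.09, limma adjusted p = 0.491).

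Selplg showed the largest rise of the 31 genes, and Ptprc one of the 2 falls. Selplg encodes the ligand of P-selectin (PSGL-1) on leukocytes, and it measured 10.03, 10.61 and 10.49 on the Vehicle arrays and 11.14, 11.10 and 11.32 on the GSK-J4 arrays. The difference was 0.81 (1.75-fold, SE 0.17, limma adjusted p = 0.0326), and the lowest Vehicle value was that of Vehicle 1. With the correction for G and C content it was 0.59 (limma adjusted p = 0.0732). Cd53, a tetraspanin of leukocytes, measured 6.32, 6.35 and 6.25 against 6.64, 6.66 and 6.95 (0.44, SE 0.10, limma adjusted p = 0.0416). With normexp background correction the Cd53 difference was 0.28 (limma adjusted p = 0.0392). It was not called with scaling to the 75th percentile (0.31, limma adjusted p = 0.0865) or without a filter on dim probes (0.44, limma adjusted p = 0.0693). Cd14, the co-receptor for bacterial lipopolysaccharide, had 2 kept probes, both higher on all GSK-J4 arrays. The brighter probe differed by 0.39 (SE 0.14, limma adjusted p = 0.104 over genes) and the other by 0.51 (SE 0.13, limma adjusted p over probes = 0.0473). Ly86, also known as MD-1, the partner of the receptor RP105, did not differ beyond the spread, with -0.02 (SE 0.11, limma adjusted p = 0.896). Itgam, the integrin chain CD11b, measured 13.90, 13.87 and 13.76 against 13.61, 13.82 and 13.74 (-0.12, SE 0.08, limma adjusted p = 0.347).

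Ptprc, the phosphatase CD45 found on all leukocytes, gave different answers with its 3 kept probes. The brightest, for transcript ENSMUST00000182138, measured 9.68, 9.79 and 9.67 against 9.15, 9.27 and 9.29, all GSK-J4 values below all Vehicle values (-0.47, SE 0.07, limma adjusted p = 0.0202). The probe for the RefSeq transcript NM_011210 measured 6.75, 6.81 and 6.47 against 6.51, 6.96 and 6.96, with a difference of 0.13 (SE 0.16, limma adjusted p over probes = 0.594). The probe for ENSMUST00000185570 differed by -0.07 (SE 0.19, limma adjusted p over probes = 0.809). The mean of the 3 probes gave -0.14 (limma adjusted p = 0.444), and the correction for G and C content brought the brightest probe to -0.29 (limma adjusted p = 0.0661). The fall of Ptprc therefore rests on 1 of the 3 probes, and 4 further probes stayed near background on every array. The opening bases of the 3 kept probes, all on the minus strand of chromosome 1 (mm9), are printed to show which stretch each measured, at chr1:140020575-140020634, chr1:139960089-139960148 and chr1:140068557-140068616.
Ptprc, ENSMUST00000182138, bases 1 to 30: ggtgccctcttctggcgatcaagttacatg
Ptprc, NM_011210, bases 1 to 30: ttatgggaaatgtaaaattgactatggcca
Ptprc, ENSMUST00000185570, bases 1 to 30: aatccttctaaatgggaaagccctcttcct

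None of the 7 surface receptors was called higher. Cx3cr1, the receptor for fractalkine, came closest, with 11.94, 11.96 and 11.80 on the Vehicle arrays and 12.12, 12.19 and 12.29 on the GSK-J4 arrays (difference 0.30, SE 0.08, limma adjusted p = 0.0595), and its other probe differed by 0.37 (SE 0.14, limma adjusted p over probes = 0.112). P2ry13, a receptor for ADP, measured 8.06, 7.94 and 7.53 against 8.14, 8.37 and 8.61 (0.53, SE 0.18, limma adjusted p = 0.0969). P2ry12, the ADP receptor that guides microglial processes and lies beside P2ry13 on chromosome 3, measured 9.01, 9.18 and 9.11 against 8.86, 9.02 and 9.39 (-0.01, SE 0.15, limma adjusted p = 0.967). The groups did not overlap for Cx3cr1 and P2ry13 and overlapped for P2ry12, where the GSK-J4 arrays held both the lowest and the highest value. Gpr34, a receptor for lysophosphatidylserine, differed by 0.34 (SE 0.17, limma adjusted p = 0.208). Csf1r, the receptor for Csf1 and Il34 on which microglia depend for survival, measured 13.28, 13.51 and 13.62 against 13.67 and 13.82, the value of GSK-J4 3 being left out for an outlier flag (0.27, SE 0.13, limma adjusted p = 0.21), while its other probe showed a difference of -0.0040 (SE 0.09, limma adjusted p over probes = 0.978). Tgfbr1, a receptor for TGF-beta, a factor that maintains the microglial state, measured 10.04, 9.96 and 9.80 against 9.61, 9.72 and 9.76 (-0.24, SE 0.09, limma adjusted p = 0.123).

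Csf3r, the receptor for granulocyte colony stimulating factor, showed the largest difference of all 31 genes, and it was a fall. Its only probe measured 16.10, 15.91 and 15.99 on the Vehicle arrays and 14.91, 15.22 and 14.53 on the GSK-J4 arrays, a difference of -1.11 (2.16-fold lower, SE 0.18, limma adjusted p = 0.0212). With scaling to the 75th percentile it was -0.68 (limma adjusted p = 0.043). This probe shares 14 bases with 9 probes of other genes. All 7 kept probes with this stretch, the Csf3r probe included, were lower on the GSK-J4 arrays. Of these 7, 4 were called lower, Csf3r among them, and the median difference was -0.74. The brightest Siglech probe shares its stretch with 19 probes of other genes, and 15 of the 18 kept probes that carry it, itself included, were lower (median -0.61). The brightest Itgam probe opens with a CA repeat shared with 126 probes, and 108 of the 124 kept probes with it, itself included, were lower (median -0.25). The stretches are printed with the 14 shared bases in capitals, from the probes at chr4:125721478-125721537, chr7:63034088-63034147 and chr7:135261755-135261814 of mm9, all on the plus strand.
Csf3r, bases 31 to 60: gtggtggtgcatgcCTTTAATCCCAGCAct
Siglech, bases 9 to 38: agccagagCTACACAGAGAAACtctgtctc
Itgam, bases 1 to 30: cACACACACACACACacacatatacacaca
Sharing of this kind was found in 2.52% of the probes on the array. Over the 778 genes whose probe shares 14 bases with at least 5 probes of other genes, 4.5% were called higher and 16.6% lower, as compared to 9.16% and 7.45% of the other genes. Whether other transcripts carrying the stretch contribute to the signals of these 3 genes was not tested. Siglech, a sialic acid-binding lectin, also had kept probes that share a stretch with fewer than 5 probes of other genes. The one at chr7:63024045-63024269 measured 6.94, 7.28 and 7.09 against 7.47, 7.46 and 7.58, a difference of 0.40 (SE 0.11, limma adjusted p over probes = 0.0548). The other, the brighter of them, for ENSMUST00000171077, gave -0.04 (SE 0.43). The brightest Siglech probe, with the shared stretch, gave -0.26 (SE 0.14, limma adjusted p = 0.225). Without Csf3r, Siglech and Itgam, the median difference of the remaining members was 0.41.

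**Figure D2:**
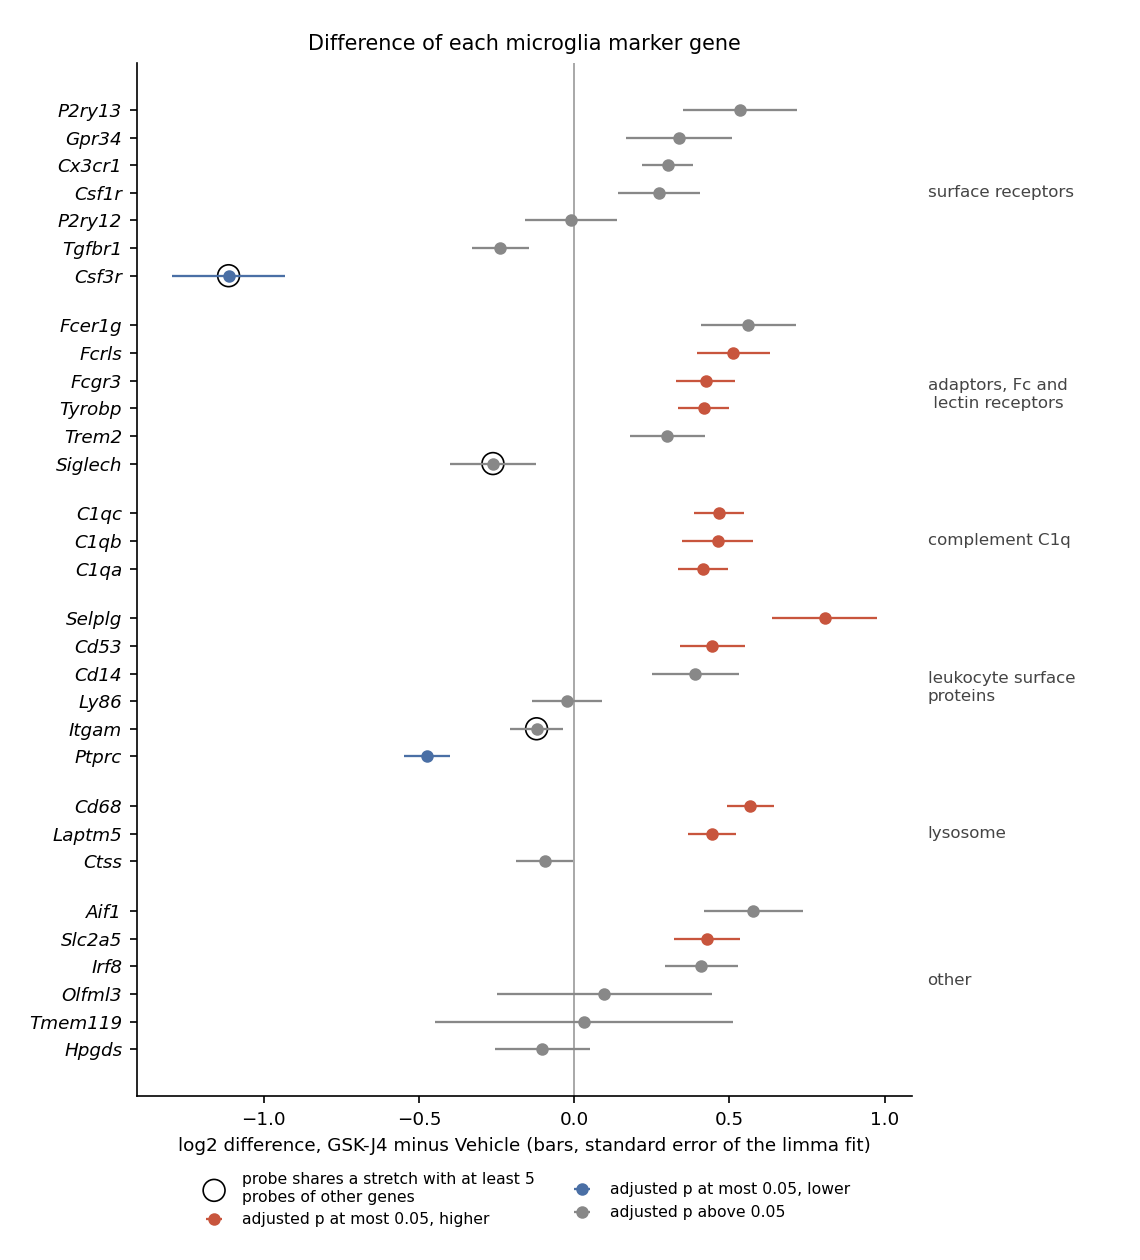
Difference of each gene in log2 signal, GSK-J4 minus Vehicle (horizontal axis), with the standard error of the limma fit as bars, red for the 11 genes called higher, blue for the 2 called lower and grey for the others. Open circles mark Csf3r, Siglech and Itgam, whose probes share a 14-base stretch with at least 5 probes of other genes.

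Of the 6 remaining genes, Slc2a5 was called higher. Slc2a5, the fructose transporter GLUT5 that microglia express, measured 9.13, 9.06 and 8.96 on the Vehicle arrays and 9.29, 9.57 and 9.57 on the GSK-J4 arrays (difference 0.43, SE 0.11, limma adjusted p = 0.0459), and 0.44 with the correction for G and C content (limma adjusted p = 0.0523). Aif1, the actin-binding protein Iba1, measured 9.72, 10.08 and 9.64 against 10.25, 10.31 and 10.61 (0.58, SE 0.16, limma adjusted p = 0.0588). Irf8, a transcription factor needed for microglial development, measured 8.55, 8.35 and 8.47 against 8.75, 8.77 and 9.08 (0.41, SE 0.12, limma adjusted p = 0.0641). The groups did not overlap in these 3 genes. Tmem119, a membrane protein that sets microglia apart from other macrophages, measured 10.19, 10.12 and 10.02 against 10.74, 10.68 and 9.004, so that 2 GSK-J4 arrays were above all Vehicle arrays and GSK-J4 3 was far below them (0.03, SE 0.48, limma adjusted p = 0.969). Without GSK-J4 3 the Tmem119 difference was 0.60. Hpgds, a prostaglandin D synthase, differed by -0.10 (SE 0.15, limma adjusted p = 0.657).

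Olfml3, an extracellular olfactomedin-domain protein, also gave different answers with its 3 kept probes. The brightest probe, for NM_133859, measured 9.86, 10.84 and 10.61 against 10.99, 10.02 and 10.58, with wide spread in both groups (0.10, SE 0.35, limma adjusted p = 0.86). The probe for ENSMUST00000154145 measured 6.65, 6.79 and 6.85 against 7.19, 7.62 and 7.43, all GSK-J4 values above all Vehicle values (0.65, SE 0.13, limma adjusted p over probes = 0.0303). A probe for ENSMUST00000029440 gave 0.04 (SE 0.26). The opening bases of the brightest probe (chr3:103540414-103540473) and of the probe that was called (chr3:103537878-103537937), both on the minus strand of mm9, are given for comparison.
Olfml3, NM_133859, bases 1 to 30: ttagacggcacccagaacgacacggctttt
Olfml3, ENSMUST00000154145, bases 1 to 30: actgcacgtatacaaatgagtggctttgtt
Counted over probes in place of genes, 15 of the 46 kept member probes were called higher (background 8.38%) and 2 lower (background 8.4%). Both kept probes were called higher for Cd68 and Fcgr3. Among the 12 members with several kept probes, Irf8 (0.41 and -0.22), Gpr34 (0.34 and -0.40) and Hpgds (-0.10 and 0.07) had probes of opposite sign, as did Csf1r, Ptprc and Siglech, with only the first value of each from the probe that stands for the gene.

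**Figure D3:**
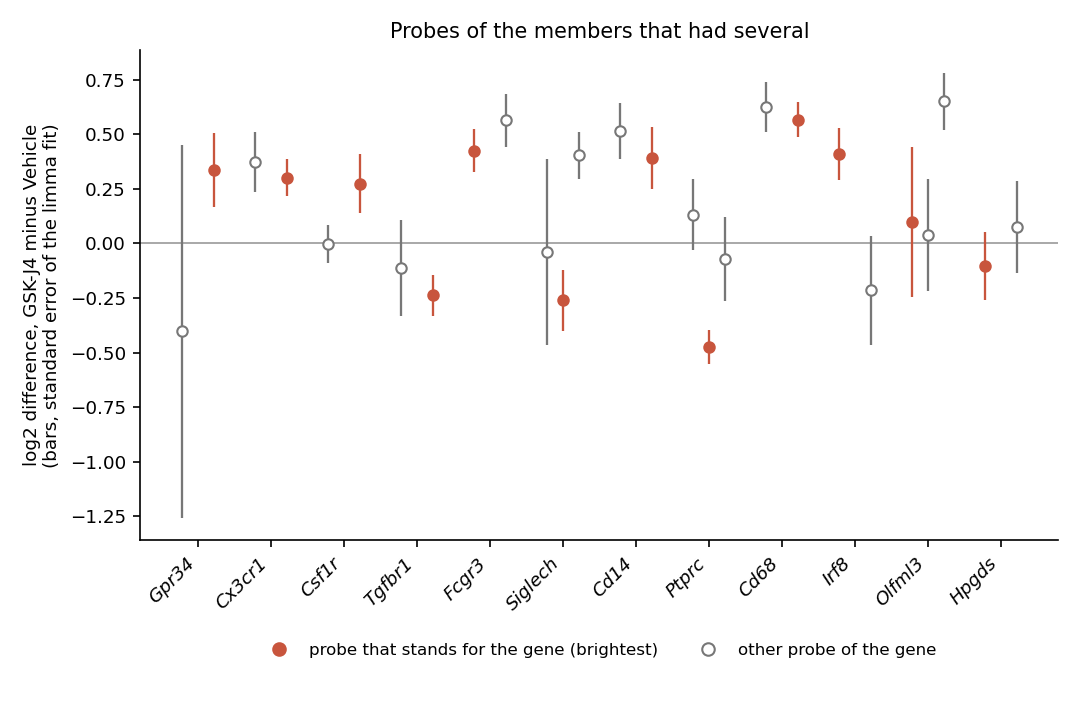
Log2 difference, GSK-J4 minus Vehicle (vertical axis), of every kept probe of the 12 members that had several, with the standard error of the limma fit as bars. Filled points are the probes that stand for their gene and open points the others. The probes of Cd68, Fcgr3, Cd14 and Cx3cr1 lie on 1 side of 0, whereas those of Ptprc, Siglech and Irf8 lie on both sides.

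The differences moved with the base composition of the probes. Over all genes, the median difference rose from -0.13 for probes with at most 35% G and C to 0.24 for probes above 50%, and the share called higher from 1.91% to 22.9%. The share called lower went from 14.5% to 1.56%. The 31 member probes had a median of 41.7% G and C as compared to 43.3% over all genes. Of the 6 members above 50%, 4 were called higher (C1qa, C1qb, Tyrobp and Fcrls), with a member median of 0.42 as compared to 0.24 over all genes. In the range from 35% to 40%, 2 of 8 members were called higher, where 4.6% of all genes were, and the member median of -0.02 was close to the -0.03 of all genes. Of the 4 members at no more than 35%, 1 was called lower (Ptprc), where 14.5% of all genes were, and their median was 0.05 as compared to -0.13. In the range from 45% to 50%, 2 of 3 members were called higher (all genes 16.8%), with a median of 0.57 as compared to 0.20 over all genes. In the range from 40% to 45%, 3 of 10 members were called higher, where 8.89% of all genes were, and 1 lower (Csf3r), where 5.92% were. The member median there was 0.36 as compared to 0.07. With the trend on base composition removed within each array, limma called 4 members higher (C1qc, Cd68, Laptm5 and Cd53) and 1 lower (Csf3r), where 1197 and 1128 of the 22117 genes were called, and the median difference of the members was 0.26. The 4 members called above 50% lost their calls, with corrected differences of 0.16 to 0.26, and C1qc, with 38.3% G and C, went from 0.47 to 0.56. Cd53 had a corrected difference of 0.57 and Cx3cr1 one of 0.32 (limma adjusted p = 0.0346 and 0.0635).

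**Figure D4:**
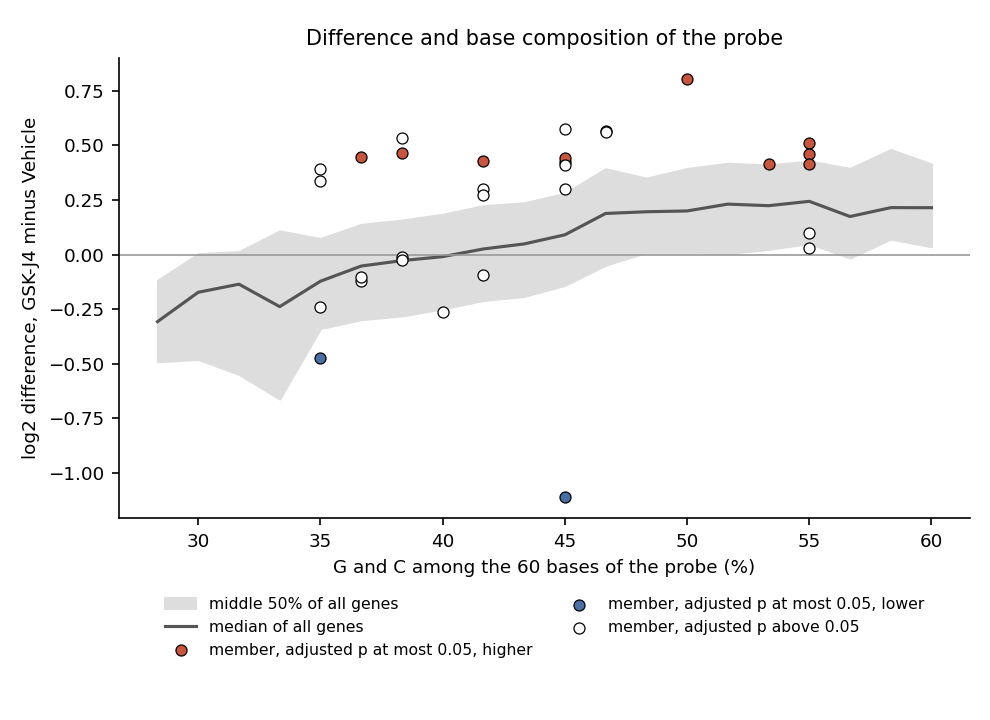
Log2 difference, GSK-J4 minus Vehicle (vertical axis), against the share of G and C in the 60-base probe (horizontal axis). The grey line and band are the median and the middle 50% of all genes, and the points are the 31 members, red where called higher, blue where called lower and white otherwise. The grey line rises with G and C, and C1qc, Cd53 and Slc2a5 lie above the band at their own share of G and C.

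Other genes of microglia were set beside the members. Of 30 other genes that microglia express, 21 were higher and 9 lower, with a median of 0.24. Limma called 4 of the 30 higher, where 9% of all genes were, and 1 lower, where 7.77% were. Crybb1, a crystallin expressed by immature microglia, rose by 0.81 (SE 0.16, limma adjusted p = 0.0303) and Pld4, a lysosomal exonuclease, by 0.60 (SE 0.09, limma adjusted p = 0.0197). Cd84, a leukocyte adhesion receptor, fell by 0.60 (SE 0.13, limma adjusted p = 0.0367). Of 9 kept transcription factors, limma called 0 higher and 1 lower (1 and 3 at an unadjusted p of at most 0.05), with a median of 0.07. The one that fell was Smad2, which transmits TGF-beta signals in many cell types, by 0.36 (SE 0.08, limma adjusted p = 0.0368). Spi1 had no probe that passed the filter. Among 8 kept ligands of microglial receptors the median was 0.03 and 2 were called higher (all genes 9%). Tgfb1, a ligand of the receptor that contains Tgfbr1, rose by 0.64 (SE 0.11, limma adjusted p = 0.0237), and Il34, the neuronal ligand of Csf1r, measured 11.55, 11.52 and 11.60 against 11.93, 11.89 and 12.03 and rose by 0.39 (SE 0.07, limma adjusted p = 0.0245).

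Complement components other than C1q were split between the directions. Of 11 kept genes, 4 were higher and 7 lower, limma called 0 (1 higher and 2 lower at an unadjusted p of at most 0.05), and the median was -0.17. The largest difference in that list was that of C1ra, a C1 protease, at -1.78 (SE 1.17, limma adjusted p = 0.318), with 1 GSK-J4 array not well above background. Genes linked to activated microglia had a median of 0.11 over 15 kept genes. Limma called 1 of them higher (all genes 9%), the chemokine Ccl4. It was well above background on 1 Vehicle array and 3 GSK-J4 arrays, and so passed the filter only through the GSK-J4 group. It measured 3.67, 3.92 and 3.78 against 4.68, 5.20 and 4.83. With Vehicle values mostly not well above background, its call and the size of its difference are not taken as a result. Itgax, Cst7, Clec7a, Ccl3 and Lilrb4 of the same list had no probe that passed the filter.

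Markers of the macrophages at the borders of the brain, in the meninges and around vessels, were higher on average as well. All 9 kept genes of that list were higher on the GSK-J4 arrays, with a median of 0.66 and a range from 0.21 to 0.86, although limma called 0 of them (4 at an unadjusted p of at most 0.05). Their mean log2 signal was 6.37 to 6.82 on the Vehicle arrays and 6.72, 7.58 and 7.31 on GSK-J4 1 to 3, so that GSK-J4 1 lay below Vehicle 3, the highest Vehicle array. Ms4a7, with the largest difference, measured 6.07, 5.53 and 5.73 against 6.08, 6.78 and 7.05 (limma adjusted p = 0.0864). Cd163 and Siglec1 of the same list had no probe that passed the filter. Many of the 31 genes, such as Cd68, Tyrobp and C1qa, are also expressed by these macrophages, and their part in the differences was not tested. Of 13 blood leukocyte markers, 5 were kept, with 3 higher and 2 lower. Limma called 1 of these 5 higher (all genes 9%), Camp, an antimicrobial peptide of neutrophils, by 0.60 (SE 0.14, limma adjusted p = 0.0442). The 2 lower were S100a8 at -0.22 (SE 0.88, limma adjusted p = 0.878) and S100a9 at -0.01 (SE 0.84, limma adjusted p = 0.992), with overlapping groups. Ccr2, Plac8, Ngp and Ltf were among those of that list that did not pass the filter.

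The lists for the main cell types of the tissue had medians near that of all genes. Limma called 0 of 10 genes in each of the lists for neurons, astrocytes, oligodendrocytes and endothelium, whose genes all passed the filter, and their medians were 0.08, 0.14, 0.07 and -0.04. At an unadjusted p of at most 0.05, 3 neuronal, 3 astrocytic, 3 oligodendrocytic and 0 endothelial genes differed. The largest differences in these lists were 0.46 for Tubb3, 0.31 for Sox9, -0.59 for Ermn and -0.39 for Kdr. The Ermn probe shares a stretch with 29 probes of other genes, the kind of sharing described above for Csf3r, Siglech and Itgam. Whether other transcripts carrying that stretch contribute to the Ermn signal was not tested. The 5 kept erythrocyte genes had a median of -0.02, with Slc4a1 at -0.23. The 9 kept choroid plexus genes were all lower on average, with a median of -1.34 and 0 called by limma, also at an unadjusted p of at most 0.05. In Aqp1, the largest of these differences, Vehicle 1 measured 10.9 and the 5 other arrays 4.11 to 5.79. The medians of the 31 members without Vehicle 1 and with it were 0.42 and 0.39.

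**Figure D5:**
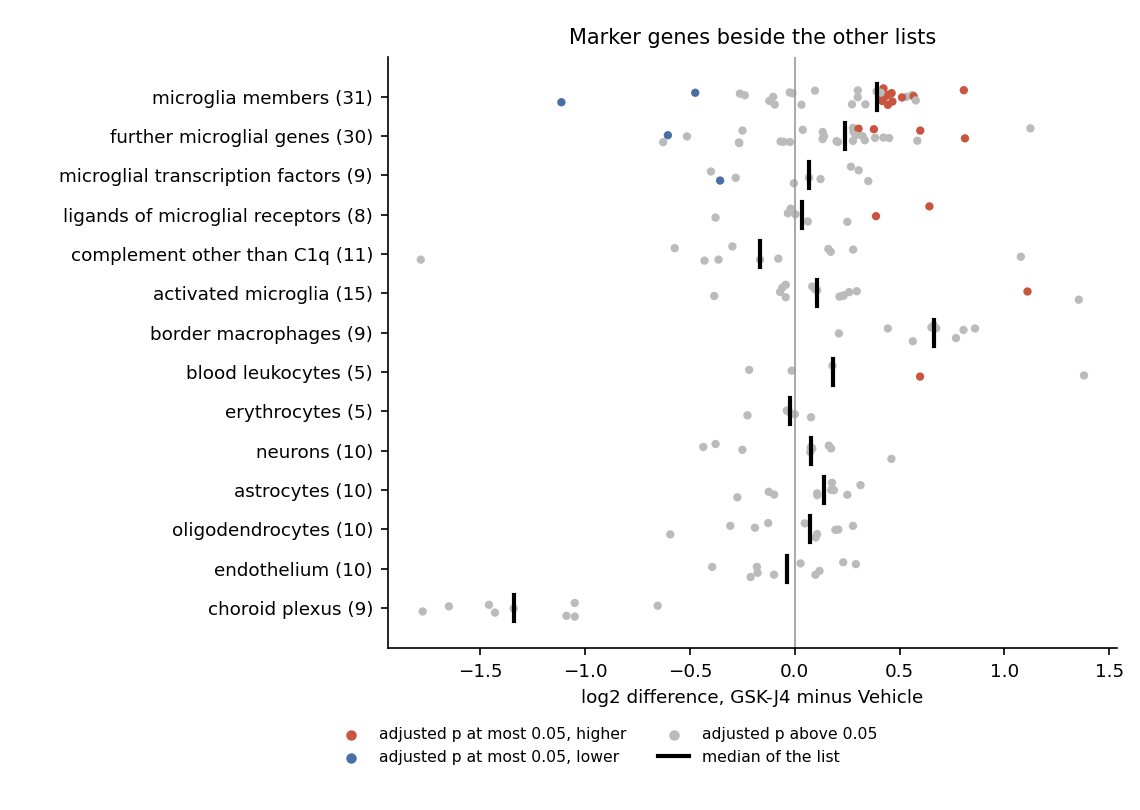
Log2 difference, GSK-J4 minus Vehicle (horizontal axis), of each kept gene of the 31 members and of 13 other lists (rows, with the number of kept genes in brackets). Points are genes, red where called higher and blue where called lower, and black bars are medians. The medians of the members (0.39) and of the border macrophage genes (0.66) lie to the right, and that of the choroid plexus genes (-1.34) to the left.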

How the data were processed

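RNA of 6 hypothalami was labelled with 1 dye and hybridized to Agilent SurePrint G3 mouse arrays. The authors extracted background-subtracted spot intensities with Agilent Feature Extraction 10.7.1.1 and deposited these together with spot flags. A further deposited table holds log2 values, quantile normalized in GeneSpring per the study's methods, and was used as an alternative. Probe coordinates are those of the files (mm9). Exon and untranslated positions are not given, since no annotation of that build was used here. Upstream sequences are from RefSeq (GRCm38.p6).

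Control spots and spots with outlier flags were left out, and no kept spot was saturated. Log2 intensities were averaged over the spots of a probe and quantile normalized between arrays. Probes were kept where 1 group or both had them well above background on all 3 of its arrays (34443 probes), and the probe with the highest mean stood for each of 22117 genes. Groups were compared with limma 3.58.1 in R 4.3.3 (lmFit and eBayes, two-sided, no covariate) with Benjamini-Hochberg adjustment over all genes, or over all probes where stated. Shared stretches are 14 bases found on either strand in at least 5 probes of other genes. The scripts were tested on simulated data. The number of arrays limits the precision.

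The members and the lists were chosen with earlier results of these data known, and the motifs after the members' values. All members were named. Of the other lists, called genes were named, at most the 3 with the largest differences, or the gene with the largest difference where 0 were called. The 2 leukocyte markers that were lower were named beside Camp. Alternatives were scaling to the 75th percentile, normexp with an offset of 50, the deposited table, other filters, the mean of a gene's probes, the replicate number as a block, a lowess correction for G and C content (span 30%), array weights, the methods' t-test, and leaving out each array. Leaving out probes with shared stretches was added after seeing the data. Slide could not be fitted, since each group lay on a slide of its own.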

Additional observations from a re-analysis of the deposited data

How the results depend on the processing

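The 11 members called higher had a difference above 0 under all 18 alternatives, and the 2 called lower had one below 0 in each alternative that kept their probe. The number called by limma changed more, and so did that over all genes (1990 higher and 1719 lower of 22117). Calls higher and lower numbered 5 and 2 without a filter on dim probes (1202 and 1158 of 37074 genes), 4 and 1 with the correction for G and C content (1197 and 1128 genes), 11 and 1 with the mean of a gene's probes (1863 and 1641), 11 and 1 without probes that share stretches (1963 and 1608, where Csf3r and Itgam had no probe left), and 0 to 8 and 0 to 2 when 1 array was left out. The methods' t-test gave 5 and 1 after adjustment with equal variances (1413 and 1072 genes), and 0 and 0 without (44 and 27 genes), where 14 members were higher and 2 lower at an unadjusted p of at most 0.05. For this unadjusted p, here and with the replicate block, the share of all genes is not given. The number past the fold of 1.5 was 1 higher and 1 lower (all genes 4.84% and 6.39%). It became 5 higher with scaling to the 75th percentile, where the median of all genes was 0.09 as compared to 0.04. Normexp, the mean of the probes and the correction for G and C content each gave 2 higher. When 1 array was left out, 1 to 6 were higher, and without probes that share stretches 0 were lower. Outside the main fit the share of all genes past this fold is not given, so these counts have no background to be read against. The correction for G and C content moved the median difference to 0.26, and called probes to 7 higher and 1 lower, for which the share of all probes is not given.

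Same-numbered arrays of the groups did not deviate together (correlations of 0.014, 0.035 and 0.082), and the numbers were not taken as pairs. With the replicate block limma called 0 members, 0 of all 22117 genes and 0 member probes in either direction, with 16 and 2 members at an unadjusted p of at most 0.05, and the median stayed at 0.39.

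Directions turned for 10 members, none of them called. With 75th percentile scaling the differences were 0.17 for Itgam, 0.011 for Siglech, 0.16 for Ctss and 0.090 for Ly86. P2ry12 was at 0.030 with normexp. Csf1r was at -0.35 in the deposited table, and at -0.0040 with the filter on all 6 arrays, where another probe stood for it. With the mean of its probes it was at -0.73. There the value of GSK-J4 3 was that of the dimmer probe alone (8.56), since the brighter one was left out for its flag. The probes taken singly differed by 0.27 and -0.0040, so that -0.73 reflects the missing value. The mean of the probes gave 0.034 for Siglech and -0.033 for Gpr34. The correction for G and C content gave 0.079 for P2ry12, -0.22 for Tmem119, 0.0017 for Itgam, 0.066 for Ly86, -0.15 for Olfml3 and 0.020 for Hpgds. Array weights gave 0.026 for Ly86 and -0.21 for Olfml3. When 1 array was left out, the differences ran from -0.16 to 0.10 for P2ry12, -0.27 to 0.60 for Tmem119, -0.11 to 0.046 for Ly86, -0.19 to 0.35 for Olfml3 and -0.23 to 0.037 for Hpgds. Apart from the probe mean of Csf1r, the cause of these turns was not tested. The GSK-J4 arrays had less signal over background, which limits what can be said of dim probes.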
